A study of Mus musculus with 2 samples.

Results

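The erythroid transcription regulators described here are 10 genes, Gata1, Klf1, Tal1, Nfe2, Zfpm1, Gfi1b, Lmo2, Bcl11a, Myb and Hemgn, of 55348 gene entries in the count tables. They were chosen by name, with earlier results of these data known, and the rows bearing those names were found for all 10 in both libraries. The RNA came from embryonic mouse hearts taken at E13.5, from strain 129sv. The control library was of wild-type genotype, and the other came from hearts homozygous for H222P, a missense mutation of Lmna, the gene of lamins A and C. There was 1 library per genotype, so no difference below has a replicate check or a p-value. The labels give neither the number nor the sex of the hearts in a library. The study as a whole concerned LSD1, a histone demethylase.

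Red cells arise in mid-gestation in successive waves: primitive erythroblasts from the yolk sac circulate through the heart, while definitive erythroblasts mature in the fetal liver. In both, GATA1 switches on the red cell genes, together with its partner FOG1 (gene Zfpm1) and with a complex in which LMO2 and LDB1 join GATA1 to the E-box-binding factor TAL1. KLF1 and NF-E2 act on the globin genes and on red cell membrane and enzyme genes. GFI1B is a repressor that brings LSD1 to its targets, BCL11A represses embryonic and fetal globin genes, and MYB maintains dividing progenitors of definitive blood.

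The wild-type library held 32669225 gene-assigned reads and the H222P library 25120790. Levels are given as CPM, the count per 1000000 gene-assigned reads, after TMM scaling, which corrects library size for differences in composition. All 95% intervals cover counting error only, and may be too narrow even for that, since no molecular identifiers that would separate copies of a molecule are described. Cardiomyocyte markers were abundant in both libraries, with a summed level of 29502 CPM in wild type and 15785 CPM in H222P over 11 genes. The H222P library also held hepatocyte transcripts: all 10 markers were at least 2-fold higher. Among the 14721 genes that averaged at least 1 CPM over both libraries, 6.09% were. The summed level of the hepatocyte markers was 32.5 CPM in wild type and 5810 CPM in H222P, and none was at 0 in either library. The difference in the erythroid regulators was measured in that same library, and the part of liver RNA in it was not tested. In bulk RNA, more cells of a type and more RNA per cell cannot be told apart.

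The letters that GATA factors read are AGATAA and its variant AGATAG, or the versions with a leading T, TGATAA and the variant TGATAG. They were searched, on either strand, in the 250 bases before the start sites that RefSeq gives on GRCm38.p6. The table held windows for 8 of the 10 genes, all but Lmo2 and Nfe2, and 9 windows in all because Tal1 has a pair of start sites. GATA letters were found in 4 of the 9 windows, those of Klf1, Tal1, Gfi1b and Hemgn, against 26.5% of all 32851 promoter windows. These 4 are shown because they are the members whose own promoter window carries the GATA letters, which are in capitals. In Klf1 and Tal1 they read on the opposite strand, as TTATCA in the first and TTATCT in the other. The Klf1 stretch (chr8:84901732-84901927, plus strand) ends where its annotated exon begins, and its letters lie 80 to 75 bases before the RefSeq start. The Tal1 stretch (chr4:115056176-115056425, plus strand) has them 205 to 200 bases before the start. The Gfi1b stretch (chr2:28621983-28622232, minus strand) has them 120 to 115 bases before the start. In Hemgn (chr4:46404185-46404206, minus strand) they lie 13 to 8 bases before the RefSeq start, inside an exon of another annotated transcript, so only 22 bases are shown.
Klf1: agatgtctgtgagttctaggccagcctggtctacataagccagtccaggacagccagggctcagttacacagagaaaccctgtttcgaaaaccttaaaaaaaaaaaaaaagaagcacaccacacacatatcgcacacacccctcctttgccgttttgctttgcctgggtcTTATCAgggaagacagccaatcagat
Tal1: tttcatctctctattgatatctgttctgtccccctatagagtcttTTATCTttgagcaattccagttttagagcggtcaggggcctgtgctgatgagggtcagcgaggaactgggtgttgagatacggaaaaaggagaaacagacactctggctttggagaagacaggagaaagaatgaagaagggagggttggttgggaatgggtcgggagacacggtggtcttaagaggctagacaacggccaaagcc
Gfi1b: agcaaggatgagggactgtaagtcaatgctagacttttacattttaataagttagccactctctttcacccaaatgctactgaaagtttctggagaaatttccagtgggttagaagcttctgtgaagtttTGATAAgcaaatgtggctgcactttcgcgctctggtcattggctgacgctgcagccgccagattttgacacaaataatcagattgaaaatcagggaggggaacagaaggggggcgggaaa
Hemgn: ctgtgcagtgTGATAAagaaag

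The CACC box letters CCNCNCCC, the kind KLF factors read, were found in windows of 7 of the 8 genes, but also in 45.9% of all windows. The letters also match GC-rich runs. E-box letters of the kind TAL1 reads, CAGNTG, were in windows of 2 genes, Hemgn and Klf1, against 44.8% of all windows. The NF-E2 core TGANTCA was in 0 of the 9 windows and in 6.75% of all. A match is a description of the letters and not of binding, and a window without a match says only that the letters are not in it.

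All 10 regulators had a higher level in the H222P library than in the wild-type library, and 9 were at least 2-fold higher. At least 8-fold differences were seen in 6 of them. Among the 14721 genes that averaged at least 1 CPM over both libraries, 6.09% were at least 2-fold higher, 1.74% at least 8-fold higher and 4.18% at least 2-fold lower. The members were chosen with this contrast known, so these counts are a description of the genes chosen. The median log2 ratio was 3.26 over the 10 members and 0.00 over all 14721 genes. All 10 passed the mean of 1 CPM, but Klf1 and Gfi1b were under 1 CPM in wild type and passed through the H222P library. Of the 8 members with at least 1 CPM in wild type, 7 were at least 2-fold higher, against 3.51% of the 14397 genes at that wild-type level.

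**Figure D1:**
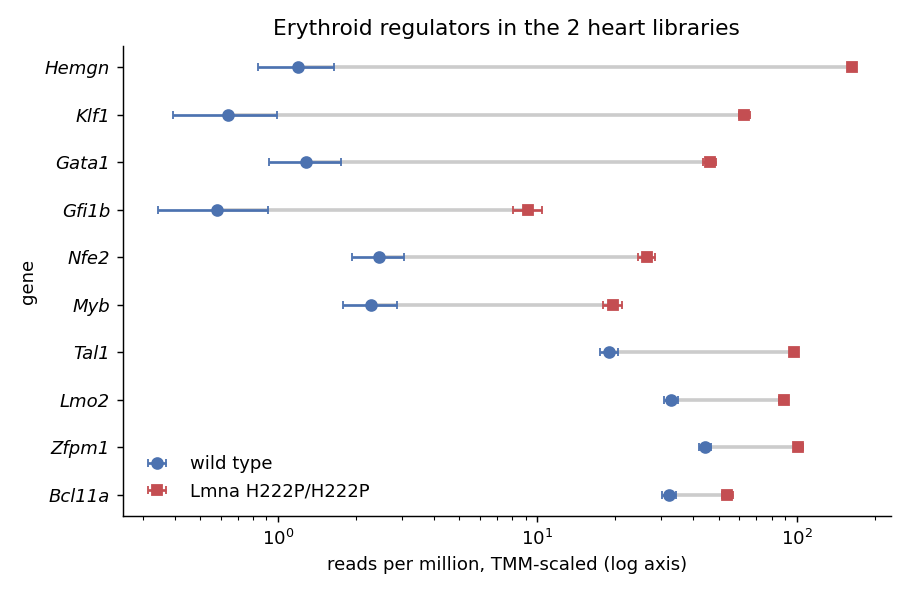
Level of each regulator in the wild-type library (circles) and the Lmna H222P/H222P library (squares), in TMM-scaled CPM on a log axis, with exact 95% Poisson intervals. The wild-type circles spread from 0.579 CPM (Gfi1b) to 44.4 CPM (Zfpm1), and each H222P square lies to the right of its circle.

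Gata1, the master factor of red cell and megakaryocyte genes (chromosome X, 7959260 to 7978071, minus strand, mm10), had 40 wild-type reads and 1219 H222P reads. These are 1.29 and 46.2 CPM, a log2 ratio of 5.15 (95% interval 4.71 to 5.66). The H222P level lies above the wild-type level by far more than counting error. The gene is X-linked, and the libraries differed in sex-linked transcripts. Xist, the RNA of the inactive X chromosome, had 12116 wild-type and 1727 H222P reads, and the Y-linked genes Ddx3y, Eif2s3y, Kdm5d and Uty had log2 ratios between 1.40 and 1.66. Their part in the Gata1 difference was not tested.

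Klf1, the erythroid Krüppel-like factor that activates adult beta-globin (chromosome 8, 84901928 to 84905291, plus strand), had 20 and 1657 reads. Its level was 0.643 CPM in wild type and 62.8 CPM in H222P, a log2 ratio of 6.57 (5.98 to 7.32). The lower bound of that interval still lies above the estimates of all members but Hemgn. Hemgn, which encodes hemogen, a nuclear protein of blood-forming cells whose gene is a GATA1 target (chromosome 4, 46393989 to 46413506, minus strand), had 37 and 4324 reads. At 1.19 and 163.9 CPM its log2 ratio was 7.09 (6.64 to 7.61), and 61 of the 14721 genes had a larger one. Klf1 and Hemgn are the pair with the highest ratios, and their intervals overlap.

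Gfi1b, the repressor that works through LSD1 and CoREST (chromosome 2, 28609450 to 28621982, minus strand), had the fewest wild-type reads of the 10, 18, and 242 in H222P. Its log2 ratio of 3.95 (3.29 to 4.77) therefore has a wide interval. Nfe2, the blood-restricted subunit of NF-E2 (chromosome 15, 103248212 to 103258403, minus strand), had 76 and 698 reads, 2.44 and 26.5 CPM. Its log2 ratio was 3.43 (3.09 to 3.80), within the interval of Gfi1b. Both genes also serve in megakaryocytes, the platelet-forming sister lineage.

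Myb, the proto-oncogene of blood progenitors (chromosome 10, 21124935 to 21160984, minus strand), had 71 and 515 reads, 2.28 and 19.5 CPM, which is a log2 ratio of 3.09 (2.74 to 3.47). An antisense gene, Gm26577, shares 559 exon bases with it and had 2 and 8 reads on its own strand. Counting both strands together gave Myb 58 and 402 reads, fewer than in the strand-specific column. The part of the shared stretch in that loss was not tested. Myb, Nfe2 and Gfi1b form a middle group whose intervals overlap one another.

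Tal1, the basic helix-loop-helix factor that starts blood formation (chromosome 4, 115056426 to 115071755, plus strand), had 587 and 2576 reads. Its 18.9 and 97.6 CPM give a log2 ratio of 2.37 (2.24 to 2.50). Lmo2, the LIM-only bridging protein of the TAL1 complex (chromosome 2, 103957986 to 103981878, plus strand), had 1020 and 2353 reads. At 32.8 and 89.2 CPM its log2 ratio was 1.44 (1.34 to 1.55), well under that of Tal1. Both genes are also used by endothelial cells. The 9 endothelial markers were all below 0 on the log2 scale, with 0 at least 2-fold lower, beside 4.18% of all 14721 genes. Their summed level was 901.6 CPM in wild type and 586.1 CPM in H222P. The part of endothelial RNA in the Tal1 and Lmo2 levels was not tested.

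Zfpm1, which encodes FOG1 (chromosome 8, 122282141 to 122337251, plus strand), had 1382 and 2679 reads. Its level was 44.4 CPM in wild type, the highest of the 10 there, and 101.5 CPM in H222P, a log2 ratio of 1.19 (1.10 to 1.29). Bcl11a, the repressor of embryonic and fetal globin genes, which is also expressed in neurons and lymphoid cells (chromosome 11, 24078056 to 24174123, plus strand), had 1000 and 1428 reads. At 32.2 and 54.1 CPM its log2 ratio was 0.75 (0.63 to 0.87), and it was the member under 2-fold. Of the 10 neuronal markers 9 were measured, 4 of them at least 2-fold higher, beside 6.09% of all 14721 genes. The summed level over all 10 markers was 57.5 CPM in wild type and 96.0 CPM in H222P. Lymphoid markers were near 0, with 6 and 15 reads over 5 genes, and Cd3e had 0 reads in both. The part of neuronal RNA in the Bcl11a difference was not tested. An antisense gene, 4930538E20Rik, shares 316 exon bases with Bcl11a and had 0 reads in both libraries. In the counts that ignore strand, Bcl11a had fewer reads, 877 and 1230.

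The 6 members with under 100 wild-type reads, Gata1, Klf1, Nfe2, Gfi1b, Myb and Hemgn, are also the 6 with at least 8-fold differences. The 4 members with more wild-type reads, Tal1, Lmo2, Zfpm1 and Bcl11a, had log2 ratios from 0.75 to 2.37. A low wild-type count enters the ratio as its denominator, so this pairing is in part a property of the ratio and carries no test.

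**Figure D2:**
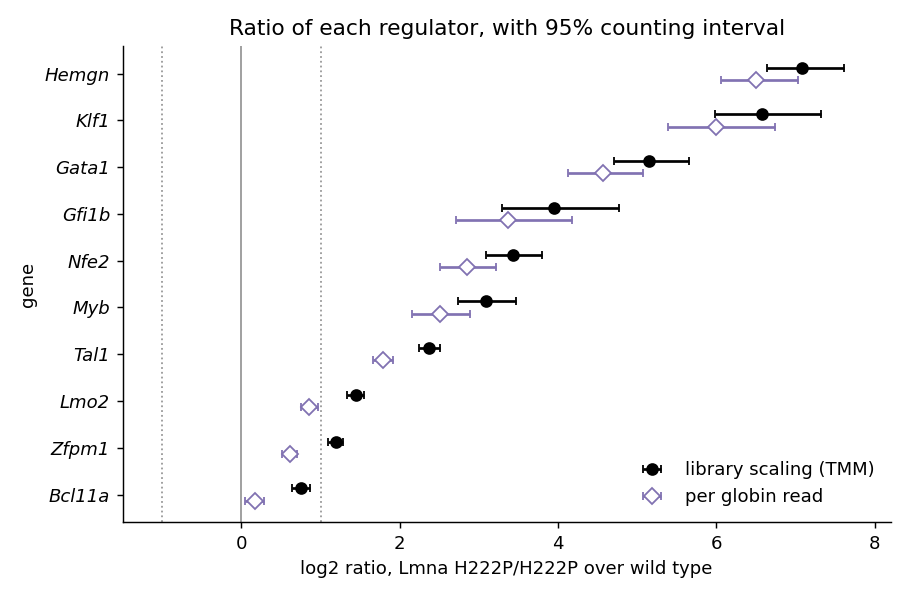
Log2 ratio of each regulator, Lmna H222P/H222P over wild type, with its 95% counting interval, after TMM scaling (filled circles) and per globin read (open diamonds). The dotted lines mark 2-fold. Filled circles run from 0.75 (Bcl11a) to 7.09 (Hemgn), and each diamond lies left of its circle by the same shift.

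Levels can be compared between genes only per length, so each CPM was also divided by the length of the gene's merged exons in kilobases, giving RPKM. In wild type the order was led by Lmo2 at 15.1 RPKM (interval 14.2 to 16.1), followed by Zfpm1 at 12.7, Tal1 at 4.31 and Bcl11a at 2.44. The other 6 lay between 0.256 RPKM (Myb) and 0.818 RPKM (Nfe2), and each of these 6 overlapped its neighbour in the order within counting error. In H222P the order was led by Hemgn at 65.3 RPKM (63.3 to 67.2), followed by Lmo2 at 41.2 and Klf1 at 41.0, which overlapped each other. Zfpm1 at 29.0, Tal1 at 22.3, Gata1 at 18.9, Nfe2 at 8.85, Gfi1b at 5.01, Bcl11a at 4.11 and Myb at 2.18 RPKM came next, each apart from its neighbour. Merged exons lengthen genes with many transcript forms, above all Bcl11a (13175 bases) and Myb (8933 bases). With the longest coding transcript instead (5989 and 3693 bases), Bcl11a and Myb stood at 9.04 and 5.28 RPKM in H222P, where Gfi1b was at 5.03. Bcl11a then stood above Gfi1b, while Myb and Gfi1b overlapped within counting error, as did Gata1 at 24.3 and Tal1 at 23.2 RPKM. Lmo2 at 52.3 RPKM then stood apart from Klf1 at 41.0. In wild type, Bcl11a at 5.37 RPKM then passed Tal1 at 4.48, and Myb stood at 0.618 RPKM, with the other 5 of the low 6 between 0.318 (Gfi1b) and 1.30 (Nfe2).

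The difference in level orders the members in another way than the ratio does. Hemgn was higher in H222P by 64.8 RPKM and Klf1 by 40.6 RPKM. Lmo2, with a ratio under 3-fold, came next with a difference of 26.0 RPKM, ahead of Gata1 at 18.4, Tal1 at 18.0 and Zfpm1 at 16.3 RPKM. The differences of Nfe2, Gfi1b, Myb and Bcl11a were 8.03, 4.70, 1.93 and 1.67 RPKM. With the longest coding transcript as length, the order of the differences was the same, but those of Nfe2, Myb and Bcl11a became 12.8, 4.67 and 3.67 RPKM, over 1.5 times as large. That length gave 23.6 RPKM for Gata1, 18.7 for Tal1 and 16.8 for Zfpm1, and 4.72 for Gfi1b, close to Myb. No interval was computed for a difference. Neighbours as close as Gfi1b and Myb with that length, or Gata1 and Tal1 with merged exons, are therefore not ranked against each other.

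**Figure D3:**
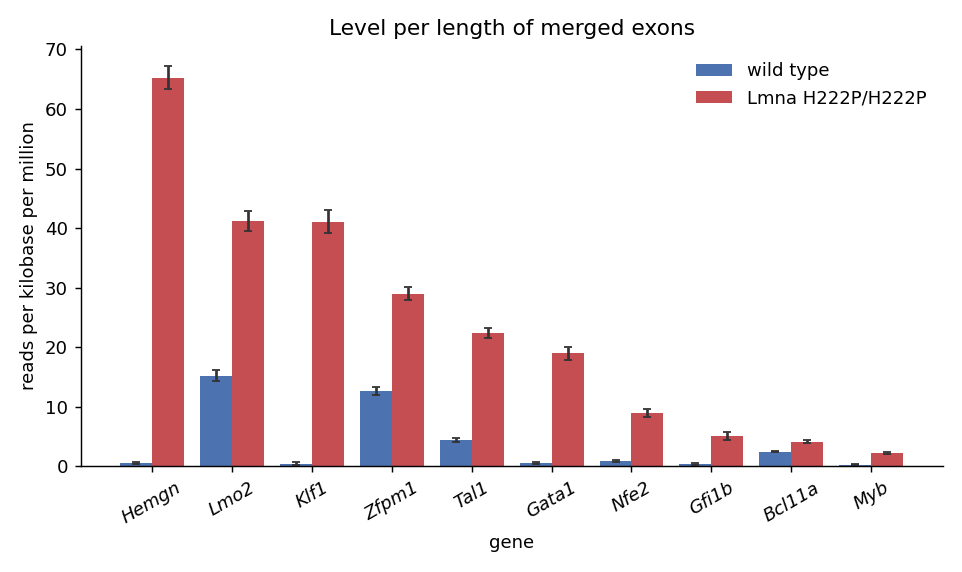
Level of each regulator per length of merged exons, in RPKM on a linear axis, in wild type and Lmna H222P/H222P, with exact 95% Poisson intervals. Hemgn is among the low bars of the wild-type library at 0.474 RPKM and the tallest of the H222P library at 65.3 RPKM, while Lmo2 and Zfpm1 are already visible in wild type.

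Of 23 genes of partner proteins of these factors, 1 was at least 2-fold higher, 0 were at least 2-fold lower and 22 lay between, with a median log2 ratio of 0.24. Over all 14721 genes the shares were 6.09% higher and 4.18% lower, so the partners' count of higher genes was near the background. The exception was Lyl1, a close relative of Tal1 that can take its place in the complex, with 359 and 671 reads and a log2 ratio of 1.14 (0.95 to 1.33). Ldb1, which joins LMO2 complexes at enhancers and promoters, had 4267 and 4276 reads and a log2 ratio of 0.24 (0.18 to 0.30). The E-protein genes Tcf3 and Tcf12, whose products pair with TAL1, had log2 ratios of 0.49 (0.43 to 0.55) and 0.38 (0.32 to 0.43). Cbfa2t3, which encodes the corepressor ETO2, had 442 and 345 reads and a log2 ratio of −0.12 (−0.33 to 0.09).

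The ratio of reads between a factor and its partner also differed between the libraries. Such a ratio is taken within a library and needs no scaling. In bulk RNA the reads of a pair can come from different cells, and their cell source was not tested. Per kilobase, Zfpm1 stood 24.0 times above Gata1 in wild type and 1.53 times above it in H222P, so the Gata1-to-Zfpm1 ratio was 15.7 times higher in H222P (95% interval 11.4 to 22.3). Tal1 per Lmo2 was 0.285 in wild type and 0.542 in H222P, 1.90 times higher (1.69 to 2.14). Lmo2 per Ldb1 was 0.508 and 1.17, so Lmo2 stood below Ldb1 in wild type. With the longest coding transcripts as lengths the values were 0.439 and 1.01, so in H222P these genes stood near each other. Nfe2 per Mafk, one of the small Maf genes whose products pair with NFE2, was 0.160 and 1.46. Gfi1b per Kdm1a, the gene of LSD1, was 0.0140 and 0.193, 13.7 times higher (8.49 to 23.6), so Kdm1a stayed well above Gfi1b in both. Klf1 per Bcl11a, an activator of adult globin genes and a repressor of embryonic ones, was 0.172 and 9.99, with Bcl11a above Klf1 in wild type and Klf1 above Bcl11a in H222P. The length choice moved this ratio and that of Gfi1b and Kdm1a by over 1.5 times. With the longest coding transcripts, Klf1 per Bcl11a was 0.0783 and 4.54, and Gfi1b per Kdm1a was 0.00825 and 0.113. How many times a ratio differed between the libraries does not depend on length.

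Most of the regulators belong to gene families with other members in heart. Each of these was also given as its share of the reads on itself and chosen relatives, which need not be the whole family. Gata1 was 0.321% of the reads on Gata1 to Gata6 in wild type (exact binomial interval 0.230 to 0.437) and 12.2% in H222P (11.5 to 12.8). Gata4, the heart's own family member, had 6104 and 4221 reads (log2 ratio −0.30, interval −0.35 to −0.24), and Gata6 had 5226 and 3549. Gata2, which precedes Gata1 in blood progenitors and is also used in endothelium, had 339 and 288 reads and a log2 ratio of 0.00 (−0.23 to 0.23). Per kilobase, Gata1 was 0.261 times Gata2 in wild type and 9.37 times Gata2 in H222P.

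The FOG family showed the same division on a smaller scale. Zfpm1 was 46.9% of the reads on Zfpm1 and Zfpm2 in wild type (45.0 to 48.7) and 72.2% in H222P (70.7 to 73.6). Zfpm2 encodes FOG2, the partner of GATA4 in heart muscle, and had 1567 and 1031 reads and a log2 ratio of −0.37 (−0.48 to −0.25). There were 3.90 Gata4 reads per Zfpm2 read in wild type and 4.09 in H222P, a change of 1.05 times (0.96 to 1.15), whereas Gata1 per Zfpm1 differed 15.7 times. The ratio of Gata1 to Zfpm1 reads thus differed between the libraries beyond counting error, and the interval for Gata4 and Zfpm2 spans 1. Which cells gave the reads of either pair was not tested.

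Klf1 was 0.427% of the reads on Klf1, Klf2, Klf3, Klf4 and Klf13 in wild type (0.261 to 0.659) and 26.6% in H222P (25.5 to 27.7). Klf2, a flow-responsive gene of endothelium, had 572 and 304 reads (log2 ratio −0.67, −0.88 to −0.47). Nfe2 was 0.870% (0.686 to 1.09) and 10.7% (9.92 to 11.4) of the reads on Nfe2, Nfe2l1, Nfe2l2 and Nfe2l3. Most of those reads were on the stress factor gene Nfe2l1, 6875 and 4434. Myb was 5.51% (4.33 to 6.90) and 33.1% (30.8 to 35.5) of the reads on Myb, Mybl1 and Mybl2. Mybl1, known for its role in male germ cells, had 590 and 244 reads and a log2 ratio of −1.04 (−1.26 to −0.82), while Mybl2, a gene of dividing cells, had 628 and 796 (0.58, 0.43 to 0.73).

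Lmo2 was 34.3% (32.6 to 36.0) and 56.8% (55.3 to 58.4) of the Lmo family's reads, most of the others being from Lmo4. Tal1 already held 61.5% (58.4 to 64.6) of the reads on Tal1, Tal2 and Lyl1 in wild type and 79.3% (77.9 to 80.7) in H222P. Bcl11a held 69.1% (66.6 to 71.4) and 81.9% (80.0 to 83.7) against Bcl11b. Gfi1, the relative of Gfi1b in other blood lineages, had 1 and 6 reads, so Gfi1b held 94.7% (74.0 to 99.9) and 97.6% (94.8 to 99.1), and a difference in that share was not detectable at this depth.

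**Figure D4:**
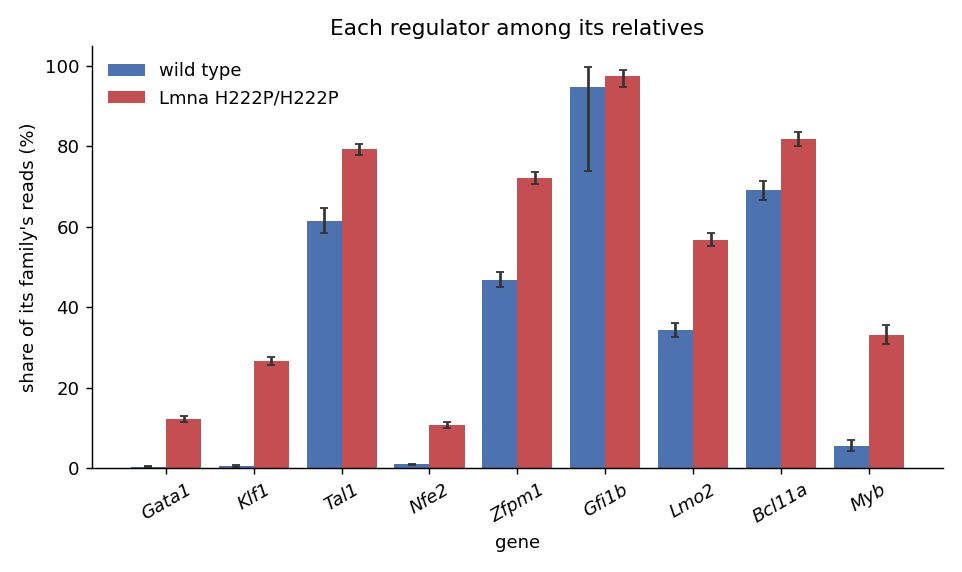
Share held by each regulator of the reads on itself and its listed relatives, in wild type and Lmna H222P/H222P, in percent, with exact 95% binomial intervals. The axis calls these genes its family. Gata1, Klf1 and Nfe2 hold under 1% of those reads in wild type and 12.2%, 26.6% and 10.7% in H222P, while the Gfi1b bars overlap.

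Genes that act with or downstream of these factors were described from lists chosen with earlier results known. Of 33 measured red cell genes, which serve the membrane, heme and iron but also include enzymes, the erythropoietin receptor gene and others, 28 were at least 2-fold higher, 0 were at least 2-fold lower and 5 lay between, with a median log2 ratio of 2.57. Pklr, the red cell and liver pyruvate kinase, had the highest ratio of them, 6.21 (5.71 to 6.80), and Aqp1, a water channel that endothelium also makes, the lowest, −0.23 (−0.36 to −0.10). Also under 2-fold were Fech at 0.90 (0.83 to 0.96), Alas2 at 0.57 (0.51 to 0.64), Epb41 at 0.49 (0.44 to 0.54) and Bpgm at 0.02 (−0.08 to 0.11). These were named after their values were seen. The transferrin receptor gene Tfrc, the most abundant, had a log2 ratio of 2.25 (2.21 to 2.29). Of all 14721 genes, 6.09% were at least 2-fold higher and 4.18% at least 2-fold lower. Of 8 measured globin genes, 3 were at least 2-fold higher and 0 at least 2-fold lower. The adult alpha-globin gene Hba-a1 was the lowest, with 50002 and 34142 reads (log2 ratio −0.31, −0.33 to −0.29), and Hba-a2 was at −0.24 (−0.33 to −0.15). The adult beta-globin genes were higher, Hbb-bs with 80019 and 133501 reads (0.98, 0.96 to 0.99) and Hbb-bt at 0.56 (0.53 to 0.59). Hbb-y, the embryonic beta-type globin, had 200407 and 206229 reads (log2 ratio 0.28, 0.27 to 0.29), while Hbb-bh1, another embryonic beta-type globin, had 4175 and 36745 (3.37, 3.33 to 3.42). Several globin genes have near-identical copies, and reads that map to several places are not in the counts.

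The regulators were also set against globin reads, a common denominator that shifts the log2 ratio of every member by the same amount. The globin genes together had 364707 reads in wild type and 464013 in H222P. The log2 ratio per globin read was 4.56 (4.13 to 5.07) for Gata1, 6.50 (6.06 to 7.03) for Hemgn and 5.99 (5.39 to 6.74) for Klf1. The median over the 10 members was 2.67. Bcl11a was lowest at 0.17 (0.05 to 0.28), then Zfpm1 at 0.61 (0.51 to 0.70) and Lmo2 at 0.86 (0.75 to 0.97). Set against the summed red cell genes of the list above instead, the median was 1.26, with 7 members above 0 and 3 below. That sum had itself a log2 ratio of 2.00, and this denominator shifts every gene down by as much. A member below 0 is thus one with a smaller ratio than the sum. Those below were Bcl11a at −1.25 (−1.36 to −1.13), Zfpm1 at −0.80 (−0.90 to −0.71) and Lmo2 at −0.55 (−0.66 to −0.45).

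Of 14 measured regulators of earlier blood progenitors, 4 were at least 2-fold higher, 0 at least 2-fold lower and 10 between, with a median log2 ratio of 0.29, beside 6.09% and 4.18% of all 14721 genes. Ikzf1, the zinc finger factor Ikaros, was highest with 77 and 828 reads (log2 ratio 3.66, 3.33 to 4.02), and Erg, which endothelium also expresses, lowest at −0.73 (−0.90 to −0.57). Cd34, a surface marker of progenitors and of endothelium and the most abundant of the list, had a log2 ratio of −0.67 (−0.75 to −0.59). Of 13 other regulators linked to red cell maturation, 2 were at least 2-fold higher and 11 lay between, with a median of 0.39. These 2 were Ikzf1 again, which is in both lists, and the cell cycle factor gene E2f2, with 553 and 1460 reads (3.11-fold higher, 2.82 to 3.44), named after its value was seen.

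Megakaryocyte markers, which share Gata1, Nfe2, Gfi1b, Zfpm1 and Tal1 with red cells, were also higher. All 8 measured were at least 2-fold higher, beside 6.09% of all 14721 genes, with a median log2 ratio of 2.70. The summed level over 9 genes was 28.6 CPM in wild type and 226.7 CPM in H222P. Gp1bb was at 0 in both libraries. Ppbp, a platelet chemokine gene, had the highest ratio of them, 4.33 (4.10 to 4.57), and Itga2b, the platelet integrin alpha chain, the lowest, 1.64 (1.47 to 1.81). The part of megakaryocyte RNA in the regulators' levels was not tested. Mast cells also use Gata1, and their markers were low in both libraries, with 171 and 87 reads over 6 genes and Fcer1a and Tpsb2 at 0 in both. The 9 macrophage markers were all below 0 on the log2 scale (median −0.28), with 0 at least 2-fold lower, beside 4.18% of all 14721 genes. Their summed level was 155.9 CPM in wild type and 126.0 CPM in H222P.

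**Figure D5:**
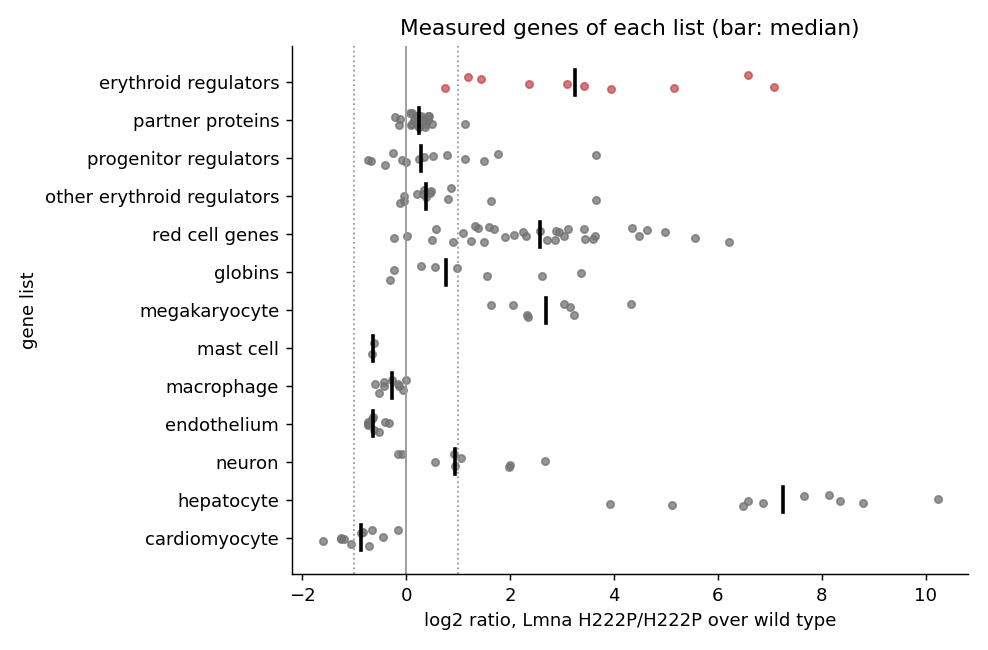
Log2 ratio, Lmna H222P/H222P over wild type, of each gene averaging at least 1 CPM in the lists described, 1 point per gene with the median as a bar and 2-fold as dotted lines. The erythroid regulators spread from 0.75 to 7.09 around a median of 3.26, and the partner proteins lie close to 0 with a median of 0.24.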

How the data were processed

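RNA was sequenced from 1 wild-type and 1 Lmna H222P/H222P heart library, grouped by genotype as labelled. The authors deposited raw read counts per gene, not normalized. STAR, HTSeq, DESeq and build mm10 are named, without roles or versions, in the submitters' processing notes; an annotation release was not given in the sources used here. Reverse-strand counts were used throughout, being 19.3 and 20.5 times the other strand's total. Reads on genes were 82.8% and 82.0% of all reads; the summary entries (unmapped 5.40% and 5.10%, multiply mapped 5.37% and 6.09%, outside genes 3.88% and 4.45%, ambiguous 2.53% and 2.38%) were left out.

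TMM factors (edgeR 4.0.16, R 4.3.3) came from genes averaging at least 1 CPM and were 0.952 and 1.05. Log2 ratios used a prior count of 0.5. Intervals are exact, at 95% (Clopper-Pearson for shares and ratios, Poisson for levels; the conditional exact odds ratio for ratios of ratios), from scipy 1.17.1. A floor of 3 reads corresponds to 0.0965 and 0.114 CPM. With 1 library per genotype no test was run; genes were described by a 2-fold size rule. The computation was tested on simulated data. The members, gene lists, pairs and motifs were chosen with earlier results of these data known. All members and their listed relatives and partners could be named, and in other lists the most abundant, highest and lowest gene. E2f2, the red cell genes under 2-fold other than Aqp1, and the globin genes Hba-a2, Hbb-bs and Hbb-bt were named after their values were seen. A lymphoid marker of the list is not reported here. No genes were named for likeness of pattern, since 2 libraries give a gene 1 ratio. Positions and exon lengths are from GENCODE M21 (GRCm38, the same assembly as mm10), promoters from RefSeq. Alternatives tried were size factors of DESeq2 1.42.0, total counts, both strands together, a prior count of 5 and thinning of the deeper library. Others were different filters, globin or globin and liver genes left out of the scaling, and other denominators for globin.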

Additional observations from a re-analysis of the deposited data

How the results depend on the processing

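The count of 9 members at least 2-fold higher was the same under all 9 alternatives of scaling, strand column, prior count, filter and depth. The median log2 ratio ranged from 3.17 to 3.40. Other filters, and leaving out globin or liver genes, changed only the scaling factors, which act on all members alike, and not the member counts. Liver RNA was thus not removed from the member counts by any of them. Of 90 member values under the 9 alternatives, 0 changed sign and 86 stayed within the counting interval of the reported value. The 4 outside were those of Tal1 (2.51), Lmo2 (1.58), Zfpm1 (1.33) and Bcl11a (0.89) with total counts in place of TMM factors, which moved the median of all genes to 0.15. The count of 9 does not hold for the globin denominators. Per globin read, Zfpm1 (0.61) and Lmo2 (0.86) were under 2-fold as well as Bcl11a (0.17). With Hbb-y alone, Zfpm1 (0.91) and Bcl11a (0.47) were. The median per globin read of 2.67 became 2.98 with Hbb-y alone as denominator and 1.26 with the summed red cell genes. With that last denominator 3 members, Zfpm1, Lmo2 and Bcl11a, fell below 0, which means a smaller ratio than that of the sum. Tal1 (0.37) was then also under 2-fold. The longest coding transcript as length was an alternative chosen after seeing the data. It moved levels and differences in RPKM by unequal amounts, and those of Klf1 not at all. It also moved the ratios per kilobase between a pair of genes in a library, but no ratio between the libraries. No paired analysis was possible because each genotype has 1 library. Wild-type counts of 18 to 40 reads limit the ratios of Gfi1b, Klf1, Hemgn and Gata1, and no alternative addresses variation between hearts.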
